A study of Mus musculus with 12 samples.

Results

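The tumour suppressor p53, encoded by *Trp53*, and 9 of its target genes were followed in whole mouse embryos at E12.5, the day 12.5 of development. The 10 genes were *Trp53*, *Cdkn1a*, *Mdm2*, *Bax*, *Ccng1*, *Bbc3*, *Phlda3*, *Sesn2*, *Eda2r* and *Trp53inp1*, listed by name. All 10 were listed in both count tables, among 23420 genes. The choice rested on the known dependence of the neural tube defects of *Pax3* mutants on p53. RNA with poly(A) tails was sequenced from 1 embryo per library in 2 lines. The *Carm1* line held 3 embryos homozygous for a null allele (Carm1tm1Mtb, written *Carm1* KO/KO, which lacks exons 2 and 3) and 3 wild-type embryos, all on C57BL/6. The *Pax3* line held 3 Splotch embryos (*Pax3* Sp2H/Sp2H, a null allele) and 3 wild-type embryos, on a mixed background from CBA/Ca, 101 and C3H/He mice. Both alleles act in all tissues, with no Cre driver, transgene or treatment named, and embryos came from matings between heterozygotes. *Carm1* encodes an arginine methyltransferase that acts as a transcriptional coactivator, and *Pax3* a transcription factor of the dorsal neural tube, neural crest and somites.

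In unstressed cells the p53 protein is kept scarce by MDM2, a ubiquitin ligase that marks it for degradation. DNA damage and other stresses release p53 from this control, and it then binds pairs of half-sites in DNA and raises transcription of genes for cell cycle arrest, cell death, metabolism and its own restraint. Because most of this control acts on the protein, the amount of *Trp53* RNA says little about p53 activity, and the RNA of its targets is the usual readout. In embryos p53 activity is low, and its excess is known to harm the neural tube and neural crest.

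The promoter windows of 4 genes are shown because the results turn on them: *Bax* and *Phlda3* were higher in *Pax3* Sp2H/Sp2H embryos, and *Cdkn1a* and *Ccng1* were lower in the null embryos of both lines. The results for *Phlda3* and *Ccng1* in the *Pax3* line and for *Cdkn1a* in the *Carm1* line were lost under some other processing, as given below. Each window holds the 250 bases before a transcript start in RefSeq on GRCm38.p6, written 5′ to 3′ on the strand of the gene. Capitals mark half-sites of the p53 response element without a mismatch and, where a window holds pairs, the pair with the fewest mismatches. Other pairs are left in lower case. *Bax* lies on the minus strand of chromosome 7 from 45461697 to 45466898 and its window is chr7:45466899-45467148. *Phlda3* lies on the plus strand of chromosome 1 from 135766119 to 135769136 with the window chr1:135765835-135766084. *Cdkn1a* lies on the plus strand of chromosome 17 from 29090976 to 29100727, and the upstream one of its 2 windows is chr17:29090729-29090978. *Ccng1* lies on the minus strand of chromosome 11 from 40748552 to 40755311 with the window chr11:40755287-40755536.
Bax: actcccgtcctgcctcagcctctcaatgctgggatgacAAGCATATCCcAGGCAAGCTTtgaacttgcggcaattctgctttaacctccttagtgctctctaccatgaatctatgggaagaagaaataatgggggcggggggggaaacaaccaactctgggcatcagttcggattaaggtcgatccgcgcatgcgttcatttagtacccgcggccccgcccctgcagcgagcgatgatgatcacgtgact
Phlda3: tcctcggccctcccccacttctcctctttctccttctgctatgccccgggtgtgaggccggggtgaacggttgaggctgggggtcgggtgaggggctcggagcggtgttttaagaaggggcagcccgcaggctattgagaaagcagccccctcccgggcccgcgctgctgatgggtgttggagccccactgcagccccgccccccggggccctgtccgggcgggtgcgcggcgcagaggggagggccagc
Cdkn1a: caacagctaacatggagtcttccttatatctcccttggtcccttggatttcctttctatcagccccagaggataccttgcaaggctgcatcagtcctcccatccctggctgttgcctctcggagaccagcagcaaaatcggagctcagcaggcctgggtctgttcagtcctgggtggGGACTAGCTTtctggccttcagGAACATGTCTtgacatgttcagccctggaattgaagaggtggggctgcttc
Ccng1: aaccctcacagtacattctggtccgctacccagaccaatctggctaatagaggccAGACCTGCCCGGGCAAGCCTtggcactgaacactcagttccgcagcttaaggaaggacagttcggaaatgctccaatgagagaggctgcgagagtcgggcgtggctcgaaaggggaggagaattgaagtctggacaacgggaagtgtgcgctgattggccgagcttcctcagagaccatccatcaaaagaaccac
The *Cdkn1a* window held 2 half-sites without a mismatch, 12 bases apart, of which the first began 73 bases before the start. The second, gaacatgtct, is followed directly by tgacatgttc, which has 1 mismatch. These also form a pair, with no spacer, whose latter part is in lower case above. In *Bax* a pair with 1 mismatch and a spacer of 1 base began 212 bases before the start. In *Ccng1* a pair with 1 mismatch and no spacer began 195 bases before the start. The *Phlda3* window held no half-site without a mismatch and no pair, and 71.2% of its bases were G or C, against a median of 52.4% over all promoters. Windows were found for 9 of the 10 genes, 12 windows in all, with no entry for *Trp53inp1*. On either strand, 5 of the 12 windows held a half-site without a mismatch and 3 held a pair with at most 2 mismatches and a spacer of at most 13 bases. Of all 32817 RefSeq promoters, 7.12% held such a half-site and 8.45% such a pair. A match is a description of the letters in a window, and binding was not measured.

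The 12 libraries held 17183344 to 23518692 counts on genes. Values are CPM, counts as a share of the library size, after scaling of that size by TMM, a method of edgeR that balances libraries on the bulk of their genes. *Carm1* itself had 71.2, 69.2 and 76.1 CPM in *Carm1* KO/KO libraries, against 151, 145 and 137 CPM in wild-type libraries of its line, a log2 fold change of -0.998 (edgeR quasi-likelihood test, Benjamini-Hochberg adjusted p = 1.2e-15). *Pax3* had 22.4, 22.0 and 18.1 CPM in *Pax3* Sp2H/Sp2H libraries and 30.9, 24.9 and 28.3 CPM in the wild-type libraries of that line, a log2 fold change of -0.43 (edgeR, adjusted p = 0.0014). Both targeted genes were lower in each null library than in each wild-type library of their line, and the remaining counts fall on all exons of each gene together. Counts on 4 Y-linked genes were present in 1 of 3 wild-type and 0 of 3 null libraries of the *Carm1* line, and in 2 of 3 wild-type and 1 of 3 null libraries of the *Pax3* line. Sex was not among the labels. Nothing in the labels ties embryos to litters, so p-values measure the spread between these embryos.

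Per kilobase of exon, *Bax* and *Trp53* were the most abundant of the 10 transcripts in wild-type embryos, and *Eda2r* the scarcest. *Bax* had 33.1 ± 2.23 CPM per kilobase and *Trp53* 28.0 ± 1.53 in wild-type embryos of the *Carm1* line (SD, n = 3). *Ccng1* followed with 14.6 ± 1.22, *Mdm2* with 14.5 ± 0.433, *Trp53inp1* with 11.6 ± 0.504 and *Phlda3* with 10.8 ± 0.739 CPM per kilobase. *Cdkn1a* stood at 8.40 ± 0.232, *Bbc3* at 4.95 ± 0.221, *Sesn2* at 3.56 ± 0.213 and *Eda2r* at 0.449 ± 0.0576 CPM per kilobase. The order of the 10 genes was the same in wild-type embryos of the *Pax3* line, from 36.3 ± 3.24 CPM per kilobase for *Bax* to 0.329 ± 0.0552 for *Eda2r*. *Ccng1* and *Mdm2* overlapped between libraries in both lines, *Trp53inp1* and *Phlda3* overlapped in the *Carm1* line, and *Bax* and *Trp53* as well as *Phlda3* and *Cdkn1a* overlapped in the *Pax3* line. All 10 genes passed the filter on low counts in both lines, with 24 to 3154 counts per library.

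**Figure D1:**
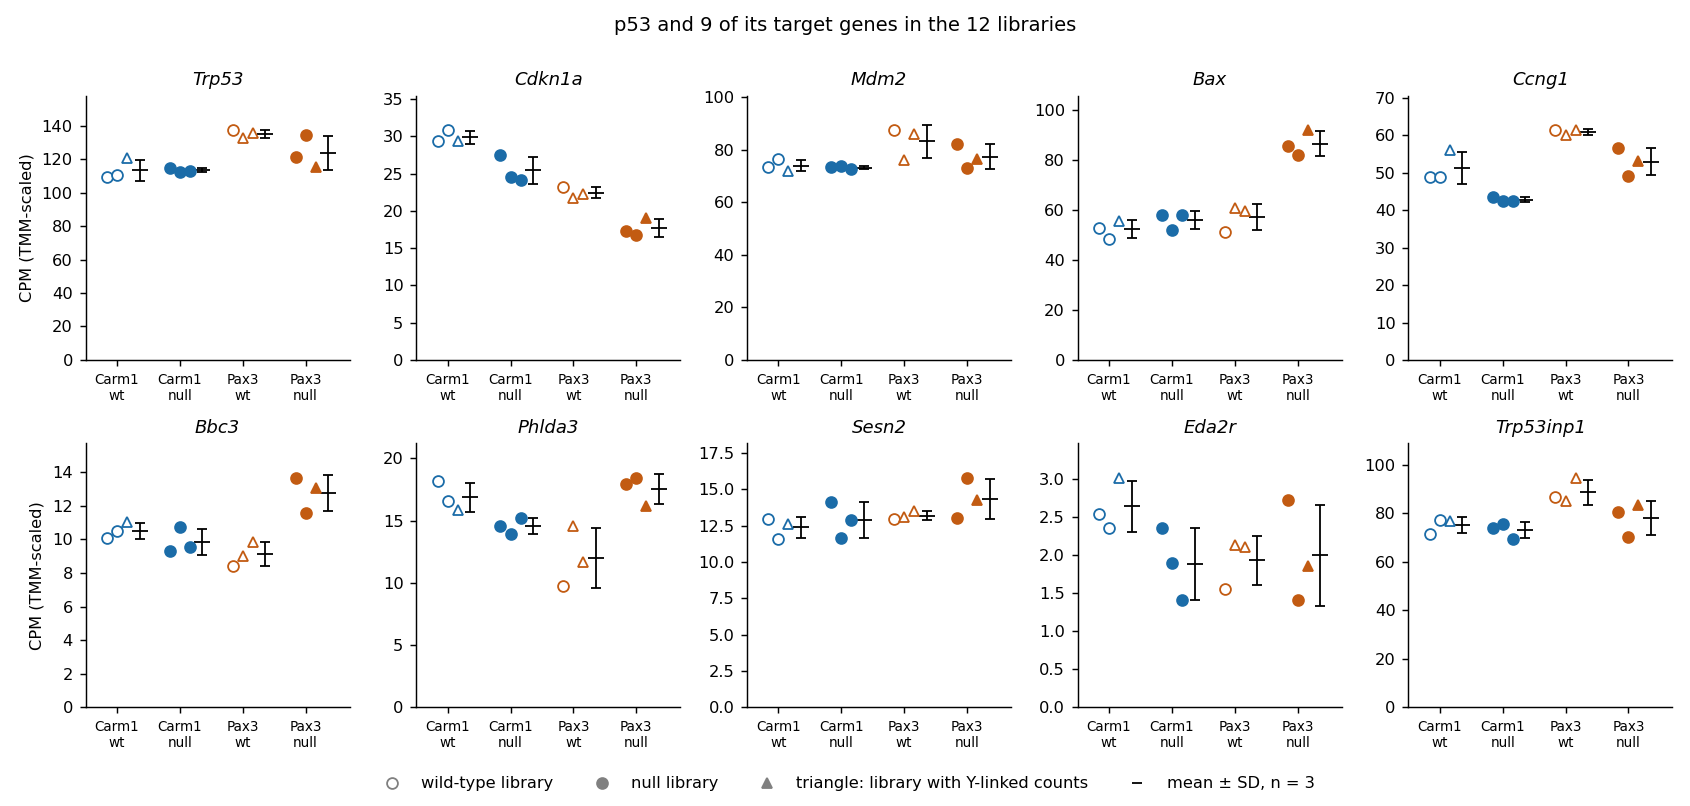
CPM of each of the 10 genes in each of the 12 libraries, with blue for the *Carm1* line, orange for the *Pax3* line, open symbols for wild-type (wt) and filled symbols for null embryos. Triangles are libraries with Y-linked counts and black bars are mean ± SD (n = 3). *Bax*, *Bbc3* and *Phlda3* of the *Pax3* null libraries lie above all wild-type libraries of that line, and *Cdkn1a* and *Ccng1* of the null libraries lie below the wild-type libraries in both lines.

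Whether the loss of *Carm1* was accompanied by a change in p53 targets was asked first. In *Carm1* KO/KO embryos *Cdkn1a* fell by 14.9% and *Ccng1* fell by 16.5%, while *Trp53*, *Mdm2* and the cell death genes *Bax* and *Bbc3* did not pass the test. Of the 10 genes, 2 passed the threshold of an adjusted p below 0.05, where 13.3% of the 15811 genes tested did. Among the 10 genes 0 were higher, against 5.49% of all genes, and 2 were lower, against 7.83%. The null and wild-type libraries were fully apart for 4 of the 10 genes, against 30% of all genes tested. The median log2 fold change was -0.07 over the 10 genes and 0.00 over all genes. With offsets for exon length and GC content the split of all calls in this line went from 868 higher and 1238 lower to 1872 higher and 1290 lower, and the 2 calls among the 10 genes stayed. The median log2 fold change over all genes was then 0.03, and values were not centred again.

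*Trp53* lies on the plus strand of chromosome 11 from 69580359 to 69591873 and has a processed pseudogene, Trp53-ps, on chromosome 17 that could share reads with it. It had 115, 113 and 113 CPM in *Carm1* KO/KO libraries and 109, 110 and 120 CPM in wild-type libraries. The null libraries lay within the range of the wild-type libraries, with a log2 fold change of 0.00 and a 95% confidence interval from -0.10 to 0.10 (edgeR quasi-likelihood test, adjusted p = 0.99). *Mdm2*, which closes the negative feedback loop of p53, lies on the minus strand of chromosome 10 from 117688875 to 117710758. It had 73.3, 73.6 and 72.5 CPM in null and 73.3, 76.3 and 72.0 CPM in wild-type libraries. Its log2 fold change was -0.02, with an interval from -0.12 to 0.09 (edgeR, adjusted p = 0.89), so the libraries of both groups were interspersed.

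*Cdkn1a* encodes p21, the inhibitor of cyclin-dependent kinases through which p53 arrests the cell cycle. It had 27.5, 24.6 and 24.1 CPM in *Carm1* KO/KO libraries and 29.3, 30.8 and 29.4 CPM in wild-type libraries. Every null library lay below every wild-type library, and the log2 fold change was -0.23 (standard error, SE, of 0.07) and an adjusted p of 0.031 from edgeR. The call was lost with DESeq2 (adjusted p = 0.11), in 1 fit of all 12 libraries (0.064), and without null replicate 2 (0.13), null replicate 3 (0.15) or wild-type replicate 2 (0.14). Exons of *Cdkn1a* share 273 bases (7.68%) with a gene model on the opposite strand, AC167363.2, and whether counting used strand is not given in the sources used here.

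*Ccng1* encodes cyclin G1, a p53 target that brings a phosphatase to MDM2. It had 43.6, 42.5 and 42.3 CPM in *Carm1* KO/KO libraries and 48.8, 48.9 and 56.2 CPM in wild-type libraries. The null libraries lay close together and all below the wild-type libraries, of which replicate 3, the library with Y-linked counts, was highest. The log2 fold change was -0.26 (SE 0.06), with an adjusted p of 0.0036 from edgeR. The call was kept in every alternative run, with adjusted p between 4.9e-04 and 0.039. With a term for Y-linked counts the adjusted p was 0.037. As wild-type replicate 3 alone has such counts in this line, the term amounts to leaving that library out.

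The cell death genes *Bax* and *Bbc3* did not pass the test in this line. *Bax*, whose product opens pores in the outer mitochondrial membrane, had 58.0, 51.9 and 57.8 CPM in null and 52.9, 48.4 and 55.4 CPM in wild-type libraries, a log2 fold change of 0.10 (edgeR, adjusted p = 0.30). Its libraries overlapped, and it passed only with length and GC offsets and a term for Y-linked counts together (adjusted p = 0.041), an alternative added after the data had been seen. *Bbc3*, which encodes PUMA, a protein that frees BAX to act, had a log2 fold change of -0.09 (edgeR, adjusted p = 0.65) with null libraries from 9.32 to 10.7 CPM and wild-type libraries from 10.1 to 11.01 CPM.

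The remaining 4 genes of the *Carm1* line were not called. *Phlda3*, an inhibitor of AKT signalling, had 14.5, 13.9 and 15.2 CPM in null and 18.1, 16.6 and 15.9 CPM in wild-type libraries. These did not overlap, yet the log2 fold change of -0.21 missed the threshold (edgeR, adjusted p = 0.14). *Eda2r*, a receptor of the tumour necrosis factor receptor family on the X chromosome (97333840 to 97377216, minus strand), had 1.41 to 2.36 CPM in null and 2.36 to 3.02 CPM in wild-type libraries, from 24 to 62 counts. Its log2 fold change of -0.47 had an interval from -0.97 to 0.02 (edgeR, adjusted p = 0.22), so a change of that size could not be told from 0 at this depth. *Sesn2*, a sestrin that restrains mTORC1, had a log2 fold change of 0.06 (edgeR, adjusted p = 0.77), and *Trp53inp1*, a cofactor that promotes p53 phosphorylation, one of -0.04 (0.65). The libraries of both groups overlapped for these 2 genes.

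In *Pax3* Sp2H/Sp2H embryos, whose neural tube defects prompted the choice of genes, *Bax* rose by 51.2%, *Phlda3* by 46.8% and *Bbc3* by 40.0%, whereas *Cdkn1a* fell by 20.96%, *Ccng1* fell by 13.1% and *Trp53inp1* fell by 12.1%. *Trp53*, *Mdm2*, *Sesn2* and *Eda2r* did not pass the test. Thus 6 of 10 genes were called, where 24.5% of the 15724 genes tested were, 3 of 10 were higher, against 14% of all genes, and 3 of 10 were lower, against 10.5%. The null and wild-type libraries were fully apart for these 6 genes, against 39.6% of all genes. The median log2 fold change was -0.03 over the 10 genes and 0.00 over all genes tested. The calls of *Bbc3*, *Phlda3*, *Ccng1* and *Trp53inp1* were lost in a fit with offsets for exon length and GC content, as given further on.

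*Bax* had 85.7, 81.8 and 91.8 CPM in *Pax3* Sp2H/Sp2H libraries and 51.3, 60.7 and 59.5 CPM in wild-type libraries. All null libraries were clearly apart from the wild-type libraries, of which replicate 1 was lowest. The log2 fold change was 0.60 (SE 0.07), with an adjusted p of 1.9e-07 from edgeR. The change kept its direction and its call in every alternative run. Exons of *Bax* share 192 bases (12.2%) with Gm45808, a gene model on the same strand.

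*Phlda3* had 18.0, 18.4 and 16.2 CPM in *Pax3* Sp2H/Sp2H libraries and 9.75, 14.6 and 11.6 CPM in wild-type libraries. The lowest null library stood above the highest wild-type library, although the wild-type libraries were spread widely. The log2 fold change was 0.55 (SE 0.11), with an adjusted p of 9.2e-04 from edgeR. *Bbc3*, on the plus strand of chromosome 7 from 16308393 to 16318205, had 13.7, 11.6 and 13.1 CPM in null and 8.44, 9.03 and 9.88 CPM in wild-type libraries. Its groups did not overlap either, with a log2 fold change of 0.49 (SE 0.11) and an adjusted p of 0.0021 from edgeR.

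*Cdkn1a* moved the other way. It had 17.2, 16.8 and 19.1 CPM in *Pax3* Sp2H/Sp2H libraries and 23.2, 21.8 and 22.2 CPM in wild-type libraries. All null libraries lay below all wild-type libraries, with a log2 fold change of -0.34 (SE 0.09) and an adjusted p of 0.0052 from edgeR. Every alternative kept this call, with adjusted p between 0.0013 and 0.033.

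*Ccng1* had 56.5, 49.2 and 53.1 CPM in *Pax3* Sp2H/Sp2H libraries and 61.4, 60.1 and 61.4 CPM in wild-type libraries. The wild-type libraries were nearly equal and the null libraries lay below them, with a log2 fold change of -0.20 (SE 0.06) and an adjusted p of 0.020 from edgeR. The call was lost without wild-type replicate 1 (adjusted p = 0.0507), wild-type replicate 3 (0.0501), null replicate 2 (0.16) or null replicate 3 (0.068). *Trp53inp1*, on the plus strand of chromosome 4 from 11156431 to 11174379, had 80.4, 70.1 and 83.3 CPM in null and 86.5, 84.8 and 94.5 CPM in wild-type libraries. Its groups were close but did not overlap, with a log2 fold change of -0.19 (SE 0.06) and an adjusted p of 0.036 from edgeR. This call was lost with DESeq2 (0.059), with a term for Y-linked counts (0.076), and without wild-type replicate 3 (0.20), null replicate 1 (0.057) or null replicate 2 (0.25).

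*Trp53* had 121, 135 and 115 CPM in *Pax3* Sp2H/Sp2H libraries and 137, 133 and 135 CPM in wild-type libraries. Null replicates 1 and 3 lay below the wild-type libraries and null replicate 2 among them, with a log2 fold change of -0.13 and an interval from -0.25 to -0.01 (edgeR quasi-likelihood test, adjusted p = 0.11). It passed the threshold in 1 fit of all 12 libraries (adjusted p = 0.047), with a term for Y-linked counts (0.041), with length and GC offsets (0.015) and without null replicate 2 (0.027). *Mdm2* had 82.3, 72.9 and 76.5 CPM in null and 87.3, 75.9 and 86.0 CPM in wild-type libraries, which overlapped. Its log2 fold change was -0.11, with an interval from -0.24 to 0.02 (edgeR, adjusted p = 0.22).

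*Sesn2*, on the minus strand of chromosome 4 from 132492032 to 132510501, had 13.1, 15.8 and 14.3 CPM in *Pax3* Sp2H/Sp2H libraries and 12.9, 13.1 and 13.5 CPM in wild-type libraries. Its null libraries spread around and above the wild-type libraries, with a log2 fold change of 0.12 and an interval from -0.08 to 0.33 (edgeR, adjusted p = 0.40). *Eda2r* had 1.41 to 2.73 CPM in null and 1.56 to 2.14 CPM in wild-type libraries, a log2 fold change of 0.05 with an interval from -0.47 to 0.57 (edgeR, adjusted p = 0.91). At 31 to 61 counts per library this interval was the widest of the 10 genes in this line.

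**Figure D2:**
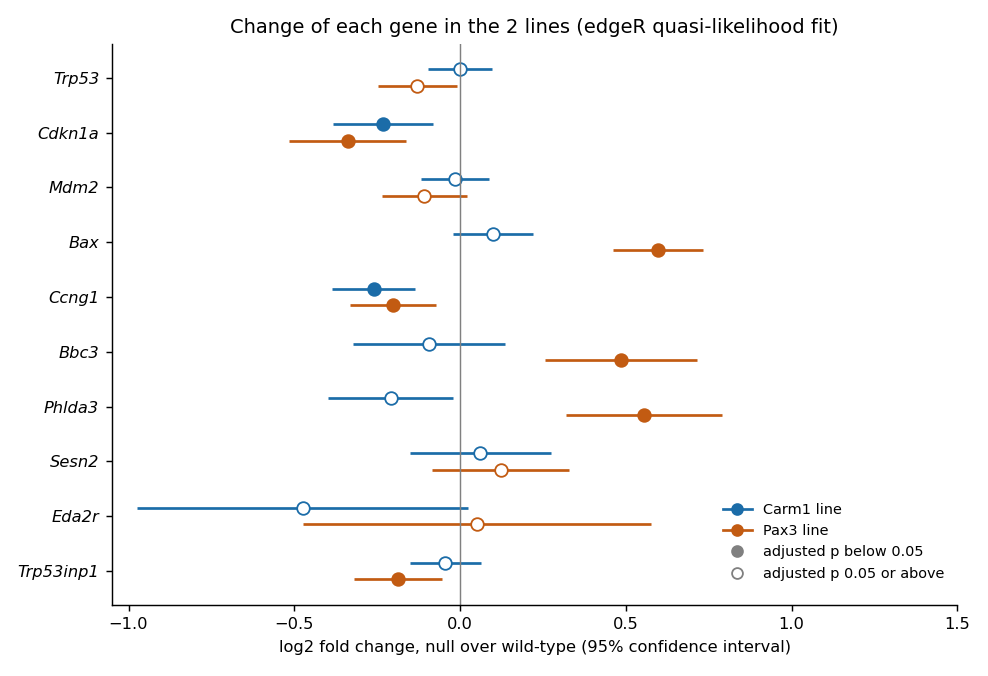
Log2 fold change of null over wild-type embryos for each of the 10 genes in the *Carm1* line (blue) and the *Pax3* line (orange), with bars for the 95% confidence interval and filled points for an adjusted p below 0.05. *Bax*, *Bbc3* and *Phlda3* lie between 0.49 and 0.60 in the *Pax3* line, whereas *Cdkn1a* and *Ccng1* lie below 0 in both lines.

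In the *Pax3* line the fold changes of all genes varied with exon length and GC content. The median log2 fold change was 0.16 in the 25% of genes with the shortest exons and -0.10 in the 25% with the longest, and it was -0.11 in the 25% with the lowest GC content and 0.15 in those with the highest. In the *Carm1* line the medians of all these groups lay between -0.01 and 0.01. *Bax* (1576 bp of exons, 59.0% GC), *Phlda3* (1559 bp, 60.2%) and *Bbc3* (2124 bp, 67.1%) are short and rich in GC, while *Ccng1* (3512 bp, 39.5%) and *Trp53inp1* (6475 bp, 39.4%) are poor in GC. *Cdkn1a* (3553 bp, 53.7%) and *Trp53* (4045 bp, 54.0%) are close to the middle of all genes. The median of the shortest 25% minus that of the longest, as a deviation from the mean of the line, was 0.13, 0.09 and 0.14 on the log2 scale in *Pax3* Sp2H/Sp2H libraries but -0.21, -0.07 and -0.07 in wild-type libraries, and the groups were apart in this contrast.

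**Figure D3:**
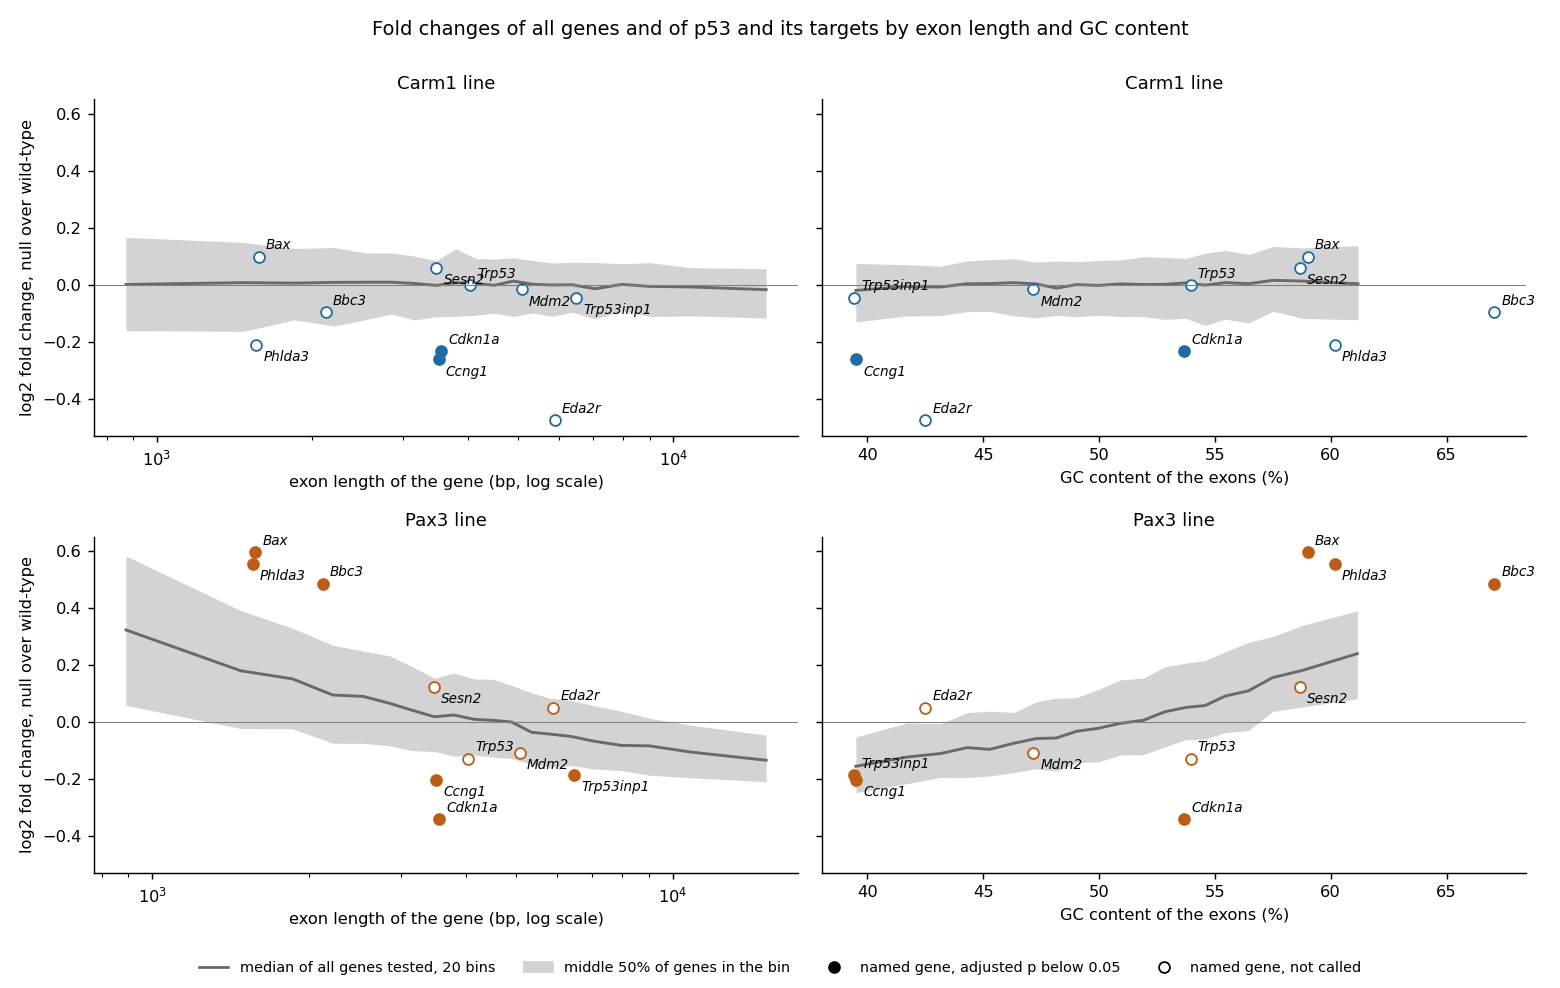
Log2 fold change against exon length (left, log scale) and GC content of the exons (right) in the *Carm1* line (top) and the *Pax3* line (bottom). The line is the median of all genes tested in 20 bins, the band their middle 50%, and points are the 10 genes, filled for an adjusted p below 0.05. The median is flat in the *Carm1* line and slopes in the *Pax3* line, where *Bax*, *Phlda3* and *Bbc3* lie above the band for length and *Cdkn1a* lies below both bands.

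When length and GC content were entered as offsets fitted in each library, 3 of the 10 genes were called in the *Pax3* line in place of 6, 1 higher and 2 lower. *Bax* stayed higher, with a log2 fold change of 0.31 in place of 0.60 (edgeR, adjusted p = 1.6e-04). *Cdkn1a* stayed lower, at -0.39 in place of -0.34 (edgeR, adjusted p = 0.0013), and *Trp53* became a call, at -0.18 in place of -0.13 (0.015). *Phlda3* (log2 fold change 0.25, adjusted p = 0.095) and *Bbc3* (0.17, 0.31) were no longer called by edgeR. Neither were *Ccng1* (-0.06, 0.51) and *Trp53inp1* (-0.01, 0.92), which came close to 0. With such offsets, 2635 genes of the whole table were called in place of 3851. Because the trend separated null from wild-type libraries, an effect of the libraries and an effect of genotype along length or GC content cannot be told apart. The offsets take out either.

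**Figure D4:**
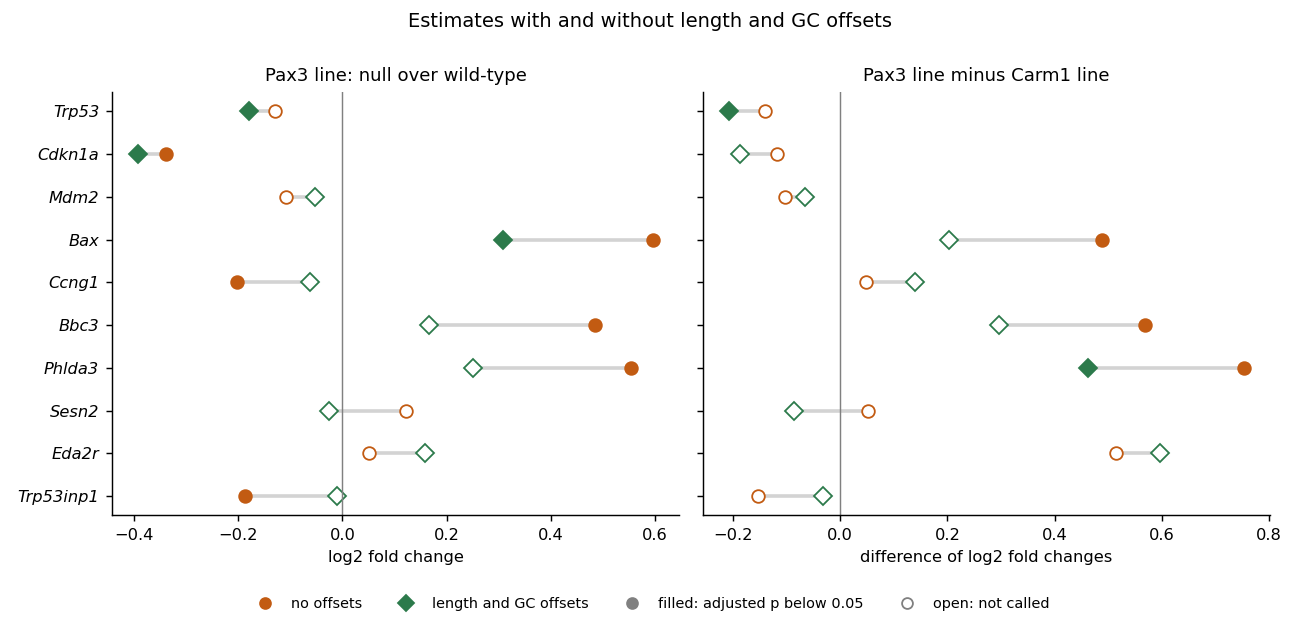
Log2 fold changes in the *Pax3* line (left) and differences between the lines (right, *Pax3* minus *Carm1*) without offsets (orange circles) and with length and GC offsets (green diamonds), filled for an adjusted p below 0.05. *Bax* and *Cdkn1a* remain filled in the *Pax3* line under both fits, and *Phlda3* remains filled in the difference between the lines.

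The difference between the lines was tested as an interaction over all 12 libraries, which asks whether a gene responded differently to the loss of *Pax3* and of *Carm1*. It was called for 3 of the 10 genes, where 19.1% of the 16292 genes tested were called. These were *Phlda3*, with a difference of 0.75 on the log2 scale (*Pax3* line minus *Carm1* line, edgeR adjusted p = 6.7e-04), *Bbc3* with 0.57 (0.0074) and *Bax* with 0.49 (3.3e-04). With length and GC offsets *Phlda3* kept its call (0.46, edgeR adjusted p = 0.016), and *Bax* (0.20, 0.062) and *Bbc3* (0.30, 0.17) lost theirs. In neither line alone was *Phlda3* called with offsets. Its rise in the *Pax3* line is given above, and in the *Carm1* line it stood at -0.20 (edgeR, adjusted p = 0.12). With a term for Y-linked counts added to the offsets, an alternative chosen after the data had been seen, *Bax* passed again (0.20, edgeR adjusted p = 0.045). With the offsets alone *Trp53* differed as well, by -0.21 (edgeR, adjusted p = 0.031), against -0.14 without offsets (0.20). Over all genes the median difference, taken here as *Carm1* line minus *Pax3* line, was 0.02 with offsets and -0.001 without. Values were not centred again, so the offsets also moved differences of *Pax3* line minus *Carm1* line slightly downward. For the 2 genes that were lower in both lines, the difference was -0.12 for *Cdkn1a*, with an interval from -0.35 to 0.12, and 0.05 for *Ccng1*, with an interval from -0.13 to 0.23 (edgeR, adjusted p = 0.53 and 0.76), which leaves room for modest differences either way. With offsets these differences were -0.19 and 0.14, neither of them called, and *Ccng1* was no longer lower by the test in the *Pax3* line. The lines differ in genetic background, and line and background cannot be told apart.

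Other genes of the p53 pathway were described from lists. Of 50 further targets, 49 were tested in each line. In the *Carm1* line 4 were higher and 2 lower, near the 13.3% of all genes called in that line, and their median log2 fold change was -0.03 against 0.00 over all genes. *Pmaip1*, which encodes the cell death protein NOXA, was highest in fold, with 8.83, 7.89 and 7.07 CPM in *Carm1* KO/KO and 4.21, 4.17 and 5.70 CPM in wild-type libraries (log2 fold change 0.76, edgeR adjusted p = 6.6e-04). *Plk3*, a stress-responsive kinase, rose by 0.51 on the log2 scale (3.7e-04), and *Gadd45a*, a growth arrest gene induced by DNA damage, fell by 0.39 (edgeR, adjusted p = 0.0079; 0.051 without null replicate 3). *Ptprv*, a phosphatase gene that p53 induces in mice, had -0.45 (edgeR, adjusted p = 0.049), a call lost with DESeq2 (0.16) and without any 1 of the 6 libraries (0.056 to 0.13). Of 11 genes for arrest 1 was called higher and 2 lower, and of 11 genes for cell death 3 higher and 0 lower. Over all genes these shares were 5.49% higher and 7.83% lower.

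In the *Pax3* line 6 of the 49 further targets were higher and 4 lower, against 24.5% of all genes called in that line, with a median of -0.02 against 0.00 over all genes. *Ddit4*, an inhibitor of mTORC1 that hypoxia and glucocorticoids also induce, had 107, 119 and 125 CPM in *Pax3* Sp2H/Sp2H and 44.4, 63.8 and 57.5 CPM in wild-type libraries, a log2 fold change of 1.09 (edgeR, adjusted p = 0.0013). *Siva1*, which takes part in cell death, rose by 0.59 (5.8e-07) and *Rps27l*, a ribosomal protein paralog under p53 control, by 0.55 (edgeR, adjusted p = 2.8e-07). All 3 stayed called with length and GC offsets, at 0.84, 0.44 and 0.41. *Trp53cor1*, the non-coding RNA upstream of *Cdkn1a* known as lincRNA-p21, had 0.637 to 1.30 CPM in null and 1.46 to 2.26 CPM in wild-type libraries (log2 fold change -0.83, edgeR adjusted p = 0.0495). That call was lost with DESeq2 (0.10), with offsets (0.070) and upon leaving out 1 library in 5 of 6 cases.

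Of the 49 further targets tested, only *Gadd45a* was called in both lines, and it went opposite ways. The share of all genes called in both lines was not computed, so this count is no result about the targets. It had 11.02, 12.6 and 10.8 CPM in *Carm1* KO/KO libraries, against 15.8, 14.1 and 15.4 CPM in wild-type libraries of that line. In *Pax3* Sp2H/Sp2H libraries it had 12.6, 11.5 and 15.8 CPM, against 9.02, 10.6 and 9.45 CPM in wild-type libraries (log2 fold change 0.46, edgeR adjusted p = 0.0055). Neither pair of groups overlapped, and the difference between the lines was 0.85 on the log2 scale (edgeR, adjusted p = 2.7e-04). This difference and the rise in the *Pax3* line come from fits without length and GC offsets.

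Among 31 regulators of p53, of which 30 were tested, 3 were higher and 0 lower in the *Carm1* line, against 5.49% and 7.83% of all genes (median 0.02). *Atm*, the kinase that activates p53 after DNA breaks, had 94.0, 103 and 97.5 CPM in *Carm1* KO/KO and 83.2, 81.9 and 83.8 CPM in wild-type libraries (log2 fold change 0.24, edgeR adjusted p = 7.3e-04). *Trp53bp2*, which encodes ASPP2, a partner that steers p53 toward cell death genes, rose by 0.19 on the log2 scale (0.014), and *Prmt5*, an arginine methyltransferase that modifies p53, by 0.15 (edgeR, adjusted p = 0.022). The call of *Trp53bp2* was lost without null replicate 2, null replicate 3 or wild-type replicate 3 (adjusted p up to 0.11), the last of which the Y-linked term repeats. That of *Prmt5* was lost without any null replicate or wild-type replicate 2 (up to 0.099). Length and GC offsets brought the count to 9 higher and 0 lower, while the higher calls over all genes went from 868 to 1872. Without null replicate 2 or null replicate 3, the count fell to 1, and it was 6 without wild-type replicate 1. Calls over all genes were 1381, 1497 and 2290 in these fits, against 2106 with all libraries of the line.

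In the *Pax3* line 3 regulators of 30 were higher and 3 lower, against 24.5% of all genes (median -0.06). *Rpl23* and *Rpl11*, ribosomal proteins that can bind and inhibit MDM2, rose by 0.68 and 0.60 on the log2 scale (edgeR, adjusted p = 7.8e-07 and 4.0e-06). *Rpl11* had 712, 720 and 748 CPM in *Pax3* Sp2H/Sp2H libraries and 406, 514 and 521 CPM in wild-type libraries. Both genes have near-identical processed copies, so their counts are uncertain, and with offsets they stood at 0.55 and 0.51. *Trp53rk*, a kinase reported to phosphorylate p53, rose by 0.43 (edgeR, adjusted p = 0.0064). *Ep300*, an acetyltransferase that acts as a p53 coactivator, had a log2 fold change of -0.20 (edgeR, adjusted p = 0.0063), which was not called with offsets (-0.10, 0.13).

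Of 18 cell cycle genes that are repressed when p53 and p21 are active, 2 were higher and 0 lower in the *Carm1* line and 3 were higher and 1 lower in the *Pax3* line, near the 13.3% and 24.5% of all genes called. Their medians were 0.03 and -0.01 on the log2 scale. *E2f1*, a transcription factor of S phase entry, was called in both lines, with log2 fold changes of 0.16 in the *Carm1* line (edgeR, adjusted p = 0.049) and 0.33 in the *Pax3* line (2.9e-04). The first of these was lost in 6 of 9 alternatives in processing and upon leaving out 1 library in 5 of 6 cases. In the *Pax3* line *E2f1* stood at 0.18 with offsets (0.033). *Bub1b*, of the spindle checkpoint, had 0.16 in the *Carm1* line (edgeR, adjusted p = 0.022). The call was lost without null replicate 1 (0.13), null replicate 2 (0.12) or wild-type replicate 3 (0.079), the last of which the Y-linked term repeats (0.079). In the *Pax3* line *Cenpa*, the histone variant of centromeres, rose by 0.29 and stayed called with offsets (0.31). *Cdc20*, an activator of the anaphase-promoting complex, had 0.24, and *Bub1*, a spindle checkpoint kinase, had -0.24 (edgeR, adjusted p = 0.0030 and 0.0022), and with offsets neither was called (0.06 and -0.11).

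**Figure D5:**
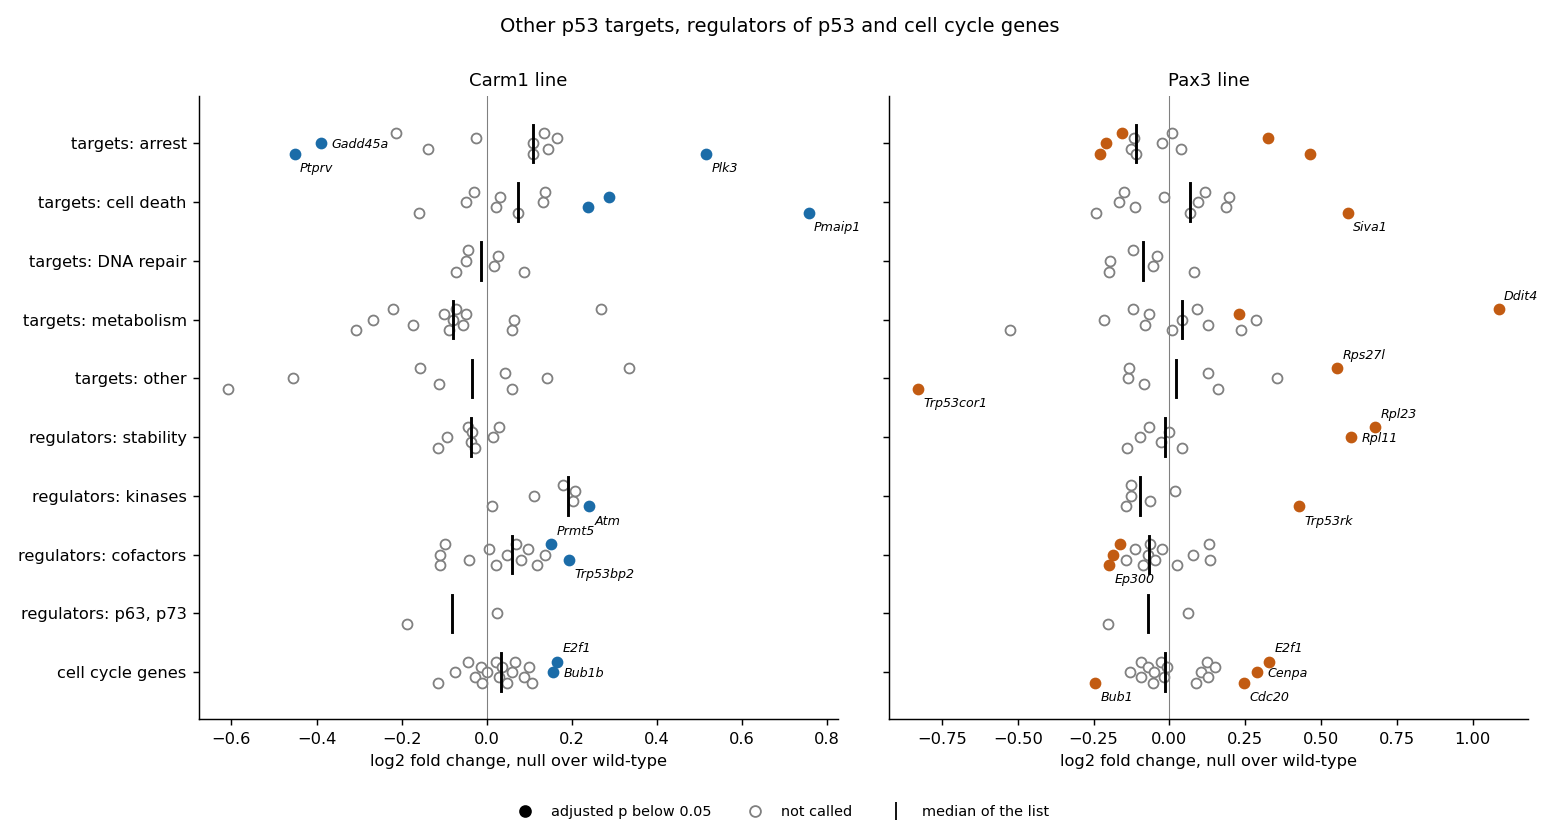
Log2 fold change of each further p53 target, regulator of p53 and cell cycle gene in the *Carm1* line (left, blue) and the *Pax3* line (right, orange). Filled points had an adjusted p below 0.05 and black bars are the median of each list. The medians lie between -0.11 and 0.19, and called genes stand on both sides of 0, with *Ddit4* at 1.09 the farthest out.

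Since RNA came from whole embryos, fewer cells of a type and less RNA per cell cannot be told apart, and changes in tissue make-up move with these results. Markers of 7 cell types, 5 genes each, were all expressed, with at least 40 counts in every library. In the *Carm1* line 5 of 5 hepatocyte markers were lower (summed 687 to 811 CPM in null and 1305 to 1591 in wild-type libraries), and so were 5 of 5 erythroid markers (572 to 654 against 816 to 939 CPM). In that line 5 of 5 neural progenitor markers were higher (783 to 833 against 570.1 to 623 CPM), while 4 of 5 skeletal muscle, 3 of 5 cardiac muscle, 3 of 5 neuron and 1 of 5 sensory and crest markers were lower. In the *Pax3* line 5 of 5 skeletal muscle markers were lower (96.9 to 116 against 186 to 199 CPM), as were 3 of 5 sensory and crest markers (51.2 to 55.8 against 84.8 to 88.6 CPM) and 2 of 5 neuron markers. There 3 of 5 neural progenitor markers were higher, and of the 5 cardiac muscle markers 3 were higher and 1 lower, while 1 of 5 hepatocyte and 0 of 5 erythroid markers were lower. Their part in the values of the p53 targets was not tested.

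The genes most alike to 3 of the members across the 12 libraries, each centred on the mean of its line, were sought among 14840 genes with at least 1 CPM. For *Trp53* they were *C130030K03Rik* (Pearson r = 0.90), *Melk*, a kinase of proliferating cells (0.90), and *Il13ra1*, an interleukin receptor chain (0.89). For *Ccng1* they were *Fgf13* (0.96), *Cd24a* (0.94) and *Snx14* (0.93). For *Bax* they were *Ssr4*, a subunit of the translocon of the endoplasmic reticulum, *Ndufc2*, a subunit of respiratory complex I, and *2010107E04Rik*, each at 0.99. The libraries share the differences in depth, genotype and exon length trend described above, so these correlations are descriptions.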

How the data were processed

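RNA was measured in 12 whole embryos at E12.5, 3 per group. The authors isolated poly(A) RNA, sequenced paired reads, used STAR for alignment to mm10 and featureCounts for counts on exons. Versions, strand setting and the treatment of reads with several alignments are not given in the sources used here. The deposited values are raw counts per gene, without normalization or pooling, for 23420 symbols in each of 2 tables, and 0 value columns were left unmapped. Groups and replicate numbers came from the sample labels.

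Separate fits were made for the lines in edgeR (version 4.0.16, under R 4.3.3): TMM scaling, filterByExpr, the robust quasi-likelihood test and Benjamini-Hochberg adjustment over all genes tested, with a threshold of 0.05. The study's methods name DESeq2, which was run here (version 1.42.0) as an alternative, because the quasi-likelihood test was used for all counts. The difference between the lines was an interaction over all 12 libraries. An exact permutation test of 3 against 3 libraries cannot give a p below 0.1 and was not used. Exon lengths and GC content came from the GENCODE annotation of GRCm38, the build of mm10, and were found for 23074 of 23420 genes (98.5%). Length and GC offsets were splines with 5 degrees of freedom fitted in each library to deviations from gene means. The members and lists were chosen with earlier results of these data known. Beyond the 10 members and the targeted genes, the genes named were, in each line, up to 4 called genes of each group of lists with the largest fold change. The scripts were tested on simulated data.

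Half-sites were searched by the consensus of the p53 response element on both strands. Further alternatives were RLE and upper-quartile factors, no filter, at least 10 counts in every library, a block for the replicate number, 1 fit of all 12 libraries, a term for libraries with at least 100 Y-linked counts, and leaving out each library.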

Additional observations from a re-analysis of the deposited data

Results flagged for a closer look

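The effects of the 2 mutations were compared by edgeR's interaction test with Benjamini-Hochberg adjustment, which called 19.1% of all genes. It called 3 of the 10 members, 10 of 49 further targets, 8 of 30 regulators and 2 of 18 cell cycle genes. The further genes given here were named because they had the largest fold changes among the genes of a list called in a line, and the targeted genes differ by design, so their number is no result. Line and genetic background cannot be told apart. Values are the log2 fold change in the *Pax3* line minus that in the *Carm1* line. Among p53 and its 9 targets the difference was 0.75 for *Phlda3*, 0.57 for *Bbc3* and 0.49 for *Bax*. Of these, *Phlda3* kept its call with length and GC offsets, although with them it was called in neither line alone.

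Among the further targets it was 1.13 for *Ddit4*, 0.85 for *Gadd45a*, 0.48 for *Rps27l* and 0.44 for *Siva1*, and it was -0.63 for *Plk3* and -0.67 for *Pmaip1*. Among the regulators it was 0.70 for *Rpl23* and 0.63 for *Rpl11*, and it was -0.38 for *Atm*, -0.31 for *Prmt5*, -0.28 for *Ep300* and -0.23 for *Trp53bp2*. Among the cell cycle genes it was 0.26 for *Cdc20* and -0.32 for *Bub1*. The differences of these further genes come from the fit without length and GC offsets. In the *Pax3* line alone, *Ep300*, *Cdc20* and *Bub1* were not called with offsets (log2 fold changes of -0.10, 0.06 and -0.11). *Ddit4*, *Siva1*, *Rps27l*, *Rpl23* and *Rpl11* stayed called there. The targeted genes differed by 0.92 (*Carm1*) and -0.82 (*Pax3*). In the *Carm1* line *Pax3* itself was higher in null embryos, by 0.37 on the log2 scale (edgeR, adjusted p = 0.0010).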

How the results depend on the processing

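Of the members, 2 were called in the *Carm1* line and 6 in the *Pax3* line. Under the alternatives the first count was 1 with DESeq2 and in 1 fit of all 12 libraries, and 3 with offsets and the Y-linked term together. The second was 3 with length and GC offsets, with or without a term for Y-linked counts, and 7 in 1 fit of all 12 libraries. Calls over all genes moved as well. In the *Carm1* line they were 1435, 1678 and 2587 in the 3 fits named, against 2106 in the main fit. In the *Pax3* line they were 2635 with offsets, 2927 with the Y-linked term added and 4596 in 1 fit of all 12 libraries, against 3851. The count of 3 for the difference between the lines stayed within 2 to 3. In the *Carm1* line the 3 regulators called became 5 with no filter and 9 with offsets. The 2 cell cycle genes called there became 1 with DESeq2, upper-quartile factors, the minimum of 10 counts, 1 fit of all 12 libraries, the replicate block or the Y-linked term, and 4 with offsets. Leaving out 1 library at a time gave 1 to 2 members, 3 to 6 further targets, 1 to 6 regulators and 0 to 2 cell cycle genes in the *Carm1* line, and 4 to 6 members, 6 to 10 further targets, 4 to 7 regulators and 4 to 5 cell cycle genes in the *Pax3* line. Over all genes these fits called 1224 to 2290 in the *Carm1* line and 2454 to 4103 in the *Pax3* line. The cause was not tested.

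Over the values of single genes under all alternatives, 747 kept their direction and their side of the threshold, 72 lost the call, 8 gained one and 18 turned in direction. Directions turned only for values that were not called, except *Trp53inp1* in the *Pax3* line, which stood at 0.0232 on the log2 scale with offsets and the Y-linked term (chosen after the data had been seen). In the *Carm1* line *Trp53* stood at -0.00148 with the minimum of 10 counts and *Mdm2* at 0.0161 with offsets. *Sesn2* in the *Pax3* line stood at -0.0254 with offsets and -0.0301 with the Y-linked term added, and its difference between the lines at -0.0862 and -0.0876. Without 1 library, *Trp53* (-0.0238 to 0.0470), *Mdm2* (-0.0343 to 0.0118) and *Sesn2* (-0.00989 to 0.129) in the *Carm1* line and *Eda2r* (-0.23 to 0.24) in the *Pax3* line crossed 0, as did the differences of *Ccng1* (-0.0232 to 0.0985) and *Sesn2* (-0.0193 to 0.119).

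Whether replicate numbers pair the embryos is not given in the labels. Same-numbered libraries had correlations of their deviations from -0.06 to 0.00 in the *Carm1* line and from -0.08 to 0.27 in the *Pax3* line. Libraries with different numbers had -0.02 to 0.06 and -0.38 to 0.26, so these correlations do not settle pairing. With the replicate block the same counts of members were called, 2 in the *Carm1* line, 6 in the *Pax3* line and 3 for the difference. In all, 1787 genes of the *Carm1* line and 4177 of the *Pax3* line were called with it, against 2106 and 3851 without it. Depth limits *Eda2r* most, at 24 to 62 counts per library. With 3 embryos per group, modest changes in RNA can be missed, and protein was not measured.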
